A study of Mus musculus with 8 samples.

Results

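Transcripts of 10 genes of the skeletal muscle fibre were measured in 8 RNA sequencing libraries of mouse vomeronasal tissue. The 10 are among 48831 genes counted. The description of each library reads whole tissue RNA sequencing of the VNO, the vomeronasal organ. The genes were taken by symbol: the myosin heavy chains Myh4, Myh1, Myh2 and Myh7, the myosin regulatory light chain Mylpf, skeletal actin Acta1, the troponin T genes Tnnt3 and Tnnt1, the calcium pump Atp2a1 and muscle creatine kinase Ckm. All mice were C57BL/6J, 8 weeks old and without a genetic change named in the labels. The flushed libraries each held tissue of 1 mouse (2 males, called flushed male 1 and 3 after their labels, and 2 females, flushed female 2 and 3). The non-flushed libraries each held tissue pooled from 2 mice (male pool 1 and 2, female pool 1 and 2). The protocol text attached to every library speaks of a heparin flush, pools included; here a library counts as flushed only where its own description says so. Total counts per library were 22101913 to 24965088 in flushed single mice and 18763557 to 22096792 in pools. The file headers carry 1 folder name and mark for all pools and another for all flushed single mice; what these stand for is not stated, so preparation, whatever they stand for and the number of mice per library cannot be told apart.

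A skeletal muscle fibre contracts when myosin heavy chains pull on actin filaments, and troponin on the actin filament lets this happen only when calcium is released inside the cell. Fast and slow fibres use different genes for the same parts. Myh4, Myh1 and Myh2 encode the heavy chains of fast fibres from the fastest to the slowest of them, and Myh7 that of slow fibres and of the heart. Tnnt3 is the fast and Tnnt1 the slow troponin T. Mylpf belongs to fast myosin, and Atp2a1 pumps calcium back into the store of fast fibres. Acta1 and Ckm, which buffers the energy supply, serve both kinds. The vomeronasal epithelium is the sensory lining of a tube in the floor of the nasal septum, where pheromones are detected. Skeletal fibres are not among its known cells. The libraries are described as whole tissue and may hold more than this lining.

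The fast myosin genes lie side by side on the plus strand of chromosome 11 (GRCm38), with Myh2 at chr11:67171027-67197517, Myh1 at chr11:67200052-67224575 and Myh4 at chr11:67238029-67260446. Myh7 lies apart from them at chr14:54970688-54994634 on the minus strand. Acta1 occupies chr8:123891769-123894751 on the minus strand, Tnnt1 chr7:4504570-4516382 on the minus strand and Tnnt3 chr7:142498836-142516009 on the plus strand. Ckm, Mylpf and Atp2a1 are also on chromosome 7. Promoters of 9 of the 10 genes matched a RefSeq entry (GRCm38.p6). The 250 bases upstream of the RefSeq start are shown for the 4 myosin heavy chain genes, because their shares in each library are given further on, and for Acta1, because it holds the recognition sequence of serum response factor. Their positions are chr11:67237562-67237811, chr11:67199852-67200101 and chr11:67170777-67171026 on the plus strand, and chr8:123894776-123895025 and chr14:54994627-54994876 on the minus strand. Capitals mark a 20-base stretch common to the 3 fast myosin promoters, and in Acta1 the serum response factor sequence, known as a CArG box.
Myh4: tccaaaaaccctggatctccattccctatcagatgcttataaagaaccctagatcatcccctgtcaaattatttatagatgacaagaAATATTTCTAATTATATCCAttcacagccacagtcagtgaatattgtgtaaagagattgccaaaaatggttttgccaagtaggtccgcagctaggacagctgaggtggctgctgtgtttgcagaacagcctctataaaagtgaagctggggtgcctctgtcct
Myh1: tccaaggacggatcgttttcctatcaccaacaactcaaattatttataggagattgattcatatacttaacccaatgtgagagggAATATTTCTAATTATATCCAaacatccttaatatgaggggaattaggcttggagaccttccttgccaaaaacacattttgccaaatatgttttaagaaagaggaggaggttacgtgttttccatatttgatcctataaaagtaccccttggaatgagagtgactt
Myh2: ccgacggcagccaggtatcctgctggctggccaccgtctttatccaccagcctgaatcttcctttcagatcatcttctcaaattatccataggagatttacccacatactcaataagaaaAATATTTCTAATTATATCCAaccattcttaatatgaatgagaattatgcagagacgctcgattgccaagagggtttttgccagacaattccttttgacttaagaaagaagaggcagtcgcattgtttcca
Acta1: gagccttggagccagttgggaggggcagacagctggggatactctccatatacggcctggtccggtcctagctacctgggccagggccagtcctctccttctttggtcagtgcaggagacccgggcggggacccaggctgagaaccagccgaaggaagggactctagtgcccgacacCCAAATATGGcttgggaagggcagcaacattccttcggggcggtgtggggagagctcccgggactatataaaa
Myh7: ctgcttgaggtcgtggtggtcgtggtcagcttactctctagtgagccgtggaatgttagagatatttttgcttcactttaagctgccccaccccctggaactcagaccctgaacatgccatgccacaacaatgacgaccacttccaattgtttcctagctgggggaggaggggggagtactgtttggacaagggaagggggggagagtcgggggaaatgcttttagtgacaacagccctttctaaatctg

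The 20 bases began 163 bases before the start of Myh4, 165 before that of Myh1 and 130 before that of Myh2. They occurred in 3 of 32544 RefSeq promoter windows of 300 bases, which were those of these 3 genes, and not in the Myh7 window. A CArG box (CC, 6 bases that are A or T, then GG) was found in the windows of Acta1 and Myh4, and in 1.64% of all windows. A MEF2 site was present in Myh1 and Myh4 and in 3.16% of all windows. The TATA core TATAAA occurred in 5 of the 9 windows and in 13.6% of all, and CATTCC, the sequence read by TEAD factors, in 4 and in 14.6%. The E-box CANNTG, which myogenic factors such as MyoD bind, was present in 7 of the 9 windows and in 72.3% of all. Each motif was searched on both strands, and overlaps between motifs were not removed. A match is a sequence description and gives no evidence of binding.

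All 10 genes were detected, at low levels. Summed over them, flushed male 1 held 645 reads, flushed male 3 124, flushed female 2 164.5 and flushed female 3 182.5. The pools held 533 reads in male pool 1, 236 in male pool 2, 475 in female pool 1 and 261 in female pool 2. In CPM, the read count scaled to a common library size, here by the total count alone, this was 25.8 in flushed male 1 and 5.61 to 7.82 in the other flushed single mice, against 25.8 and 21.5 in male pool 1 and female pool 1 and 12.6 and 13.4 in the second pools. The level was thus high in 3 libraries, 1 of a single mouse and 2 of pools, which differ in sex and preparation. In bulk tissue, fewer cells of a type and less RNA per cell cannot be told apart. These reads carry no molecular identifiers, so intervals on counts cover counting error only.

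**Figure D1:**
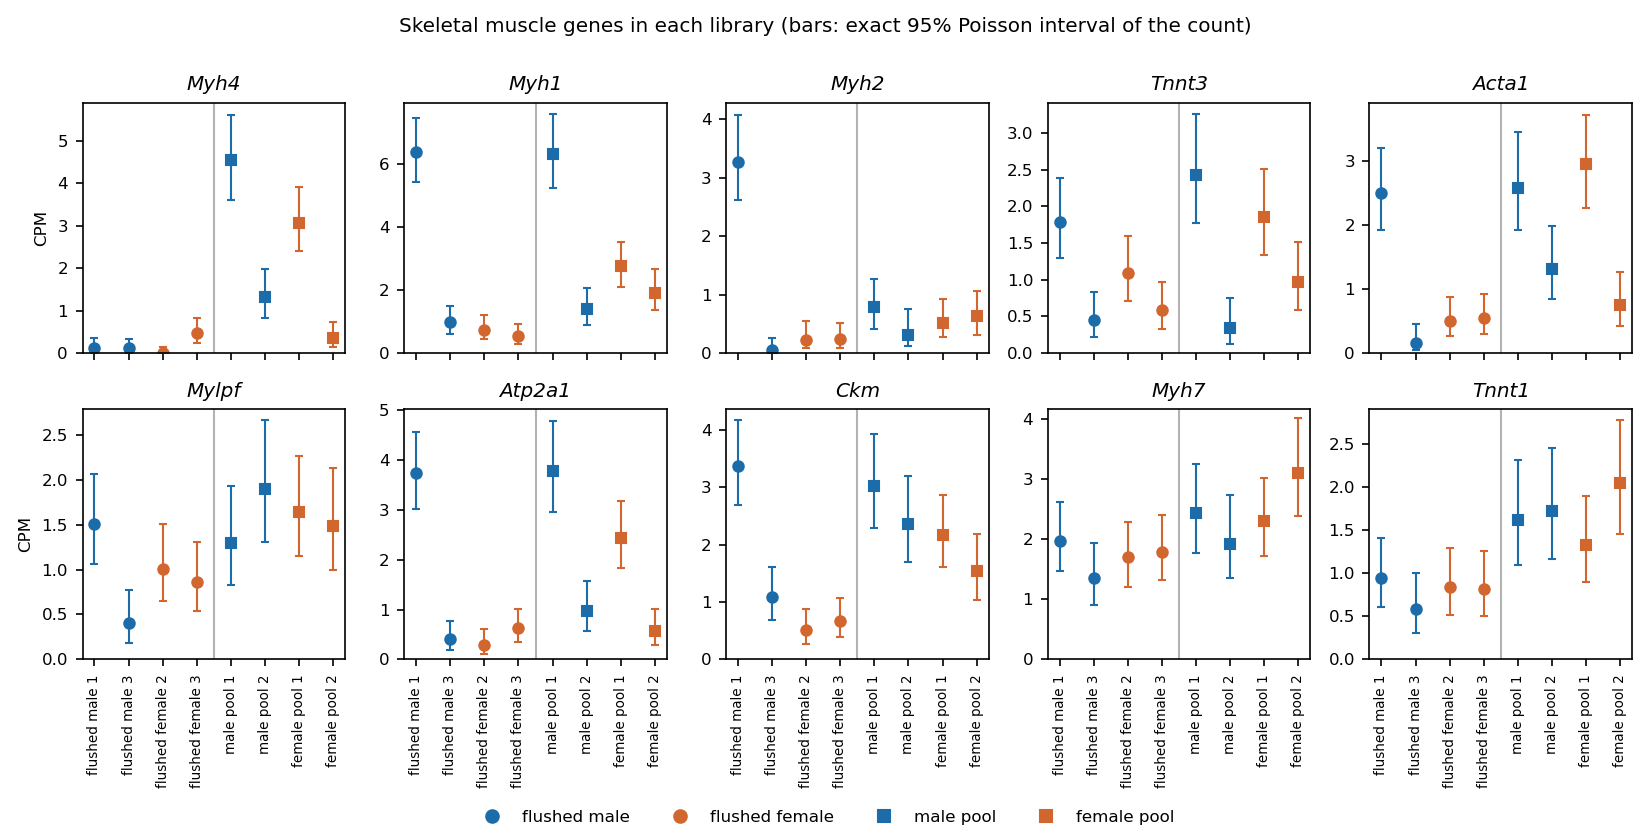
Normalised read count (CPM, with TMM-scaled library sizes as in all values that follow) of each skeletal muscle gene in the 4 flushed single mice (circles, left of the line) and the 4 non-flushed pools (squares), with males in blue and females in orange. Bars are exact 95% Poisson intervals of the count. Flushed male 1 reached 6.39 CPM for Myh1 and 3.28 CPM for Myh2, while 0.982 and 0.235 CPM were the highest values of the remaining flushed single mice.

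Levels per exon length (RPKM) ran from a mean over the 8 libraries of 1.19 RPKM for Mylpf and 0.919 RPKM for Acta1 down to 0.208 RPKM for Myh4 and 0.106 RPKM for Myh2. In between came Tnnt3 at 0.752, Ckm at 0.631, Tnnt1 at 0.562, Atp2a1 at 0.461, Myh1 at 0.414 and Myh7 at 0.241 RPKM. Neighbours in this order overlapped across libraries. The order also rested on which libraries entered the mean: in flushed male 1, Acta1 with 1.63 RPKM stood above Mylpf with 1.42 RPKM. These levels are far below those of genes of the surrounding tissue, such as smooth muscle actin Acta2 with a mean of 472.0 RPKM and the olfactory marker protein gene Omp, of mature sensory neurons, with 185 RPKM.

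Among the fast myosins, Myh4 differed most between preparations. Its level was 0.112 CPM in flushed male 1, 0.112 in flushed male 3, 0 in flushed female 2 and 0.470 in flushed female 3, against 4.55 and 1.32 CPM in male pools 1 and 2 and 3.08 and 0.358 CPM in female pools 1 and 2. All flushed single mice were low and 3 of the 4 pools high, and the groups overlapped because flushed female 3 lay above female pool 2. The count of 0 in flushed female 2 allows a level of up to 0.126 CPM (3 counts, a one-sided limit; the two-sided 95% exact Poisson interval ends at 0.155 CPM). The mean was 0.174 ± 0.205 CPM in flushed single mice and 2.33 ± 1.86 CPM in pools (SD, n = 4 each), a 12.7-fold lower level (-3.67 on the log2 scale, SE 0.85, adjusted p = 0.0056 by edgeR's quasi-likelihood test). Within females alone the difference was -2.82 with an edgeR adjusted p of 0.13, and within males alone -4.74 with 0.0054. With 1 library left out, the difference ran from -5.12 (without flushed female 3) to -3.07 (without male pool 1).

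Myh1, the heavy chain of intermediate fast fibres, was the gene with the highest CPM. It had 6.39 CPM in flushed male 1, 0.982 in flushed male 3, 0.736 in flushed female 2 and 0.548 in flushed female 3, against 6.31, 1.41, 2.76 and 1.92 CPM in male pools 1 and 2 and female pools 1 and 2. Flushed male 1 and male pool 1 were both high, at more than 2 times the level of any other library, and the groups overlapped. The preparation difference was -0.76 on the log2 scale (SE 0.62, edgeR adjusted p = 0.34), which did not pass the threshold.

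Myh2, the slowest of the fast heavy chains, was high in 1 library. Flushed male 1 had 3.28 CPM from 82.7 reads, flushed male 3 0.0450, flushed female 2 0.231 and flushed female 3 0.235 CPM, against 0.784, 0.316, 0.524 and 0.639 CPM in male pools 1 and 2 and female pools 1 and 2. Without flushed male 1 every flushed single mouse lay below every pool. Leaving out the highest library lowers the flushed level by construction. The share of all genes separated in this way was not counted. The fitted difference over all libraries was 0.50 (SE 0.89, edgeR adjusted p = 0.67), and without flushed male 1 it turned to -1.71 (SE 0.53, edgeR adjusted p = 0.029).

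Myh7, the slow heavy chain, varied little. It had 1.96, 1.35, 1.70 and 1.78 CPM in flushed males 1 and 3 and flushed females 2 and 3, against 2.43, 1.92, 2.30 and 3.10 CPM in male pools 1 and 2 and female pools 1 and 2. Flushed male 1 did not stand out from the other flushed single mice, and it overlapped male pool 2. The mean of 1.70 ± 0.257 CPM in flushed single mice was 1.43-fold lower than the 2.44 ± 0.491 CPM in pools (SD, n = 4 each; a difference of -0.51 on the log2 scale, SE 0.19, edgeR adjusted p = 0.047). This call was lost in the fits that left out any 1 of 6 libraries (edgeR adjusted p 0.053 to 0.13) and with DESeq2 (adjusted p = 0.12).

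Reads of the myosin genes can belong to more than 1 of them. Of the 100-base windows of the longest coding transcript, 9.73% of Myh1, 9.17% of Myh2 and 3.85% of Myh4 also occur in another gene, mostly in each other and in Myh8 and Myh13. For Myh7 the share was 11.2%, all in Myh6, the fast heavy chain of the heart. Myh6 had 14.0 ± 1.20 CPM in flushed single mice and 17.5 ± 2.29 CPM in pools (SD, n = 4 each), which is above Myh7 in every library, so the Myh7 level is uncertain. Of 7 other striated muscle myosins 2 were tested and Myh6 was lower in flushed single mice (-0.31 on the log2 scale, SE 0.10, edgeR adjusted p = 0.028). Of the 10 genes, the 6 that are not myosin heavy chains share no such window with another gene. Acta1 nevertheless had fractional counts in 5 of the 8 libraries, so some of its reads had several alignments. Where else these reads aligned was not examined, so the Acta1 level is uncertain too. Myh7 also overlaps the microRNA gene Mir208b on its strand, and reads over more than 1 gene were not counted.

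The mix of the 4 heavy chains was expressed as shares of their summed RPKM. Myh7 held 13.3% in flushed male 1, 46.7% in flushed male 3, 57.2% in flushed female 2 and 51.3% in flushed female 3, against 13.2%, 31.6%, 20.8% and 44.5% in male pools 1 and 2 and female pools 1 and 2. The slow share was thus low in the libraries rich in the other genes, whose fast myosins were high while Myh7 itself changed little. Because Myh7 shares windows with the more abundant Myh6, its share is as uncertain as its level, most of all where myosin reads were few. Flushed male 1 and male pool 1 had the same slow share but a different fast mix: Myh4 held 1.09% and Myh2 26.8% in flushed male 1, against 35.3% and 5.12% in male pool 1. Counted in reads, Myh4 was 0.956% of 296 reads in flushed male 1 (95% Wilson interval 0.345 to 2.94%) and 32.3% of 260 reads in male pool 1 (26.9 to 38.2%). Myh1 was the largest fast share in both, with 58.7% and 46.4%.

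The second single-mouse male and the flushed females carried 55 to 78 myosin reads each, so their shares are less precise. Flushed female 2 had Myh4 at 0 of 64 reads, which allows a share of up to 4.69% (3 counts, a one-sided limit; the two-sided 95% Wilson interval ends at 5.66%). Flushed female 3 had a Myh4 share of 19.3%, against 39.7% in female pool 1 and 7.33% in female pool 2. The share of Myh4 therefore ranged widely within each preparation as well as between them. No test was made on these shares.

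**Figure D2:**
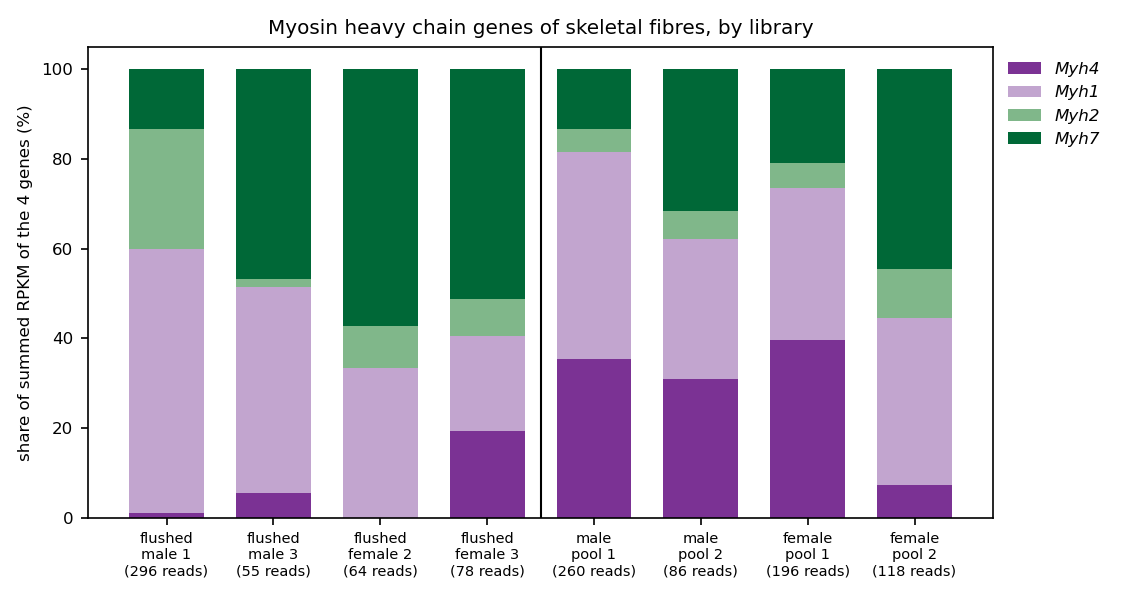
Share of each myosin heavy chain gene in the summed RPKM of Myh4, Myh1, Myh2 and Myh7, for each library, with the number of reads under each bar. Flushed male 1 and male pool 1 both had a Myh7 share near 13%, but Myh4 held 1.09% in flushed male 1 and 35.3% in male pool 1. Windows shared with Myh6 make the Myh7 share uncertain.

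The troponin T genes, which fasten the calcium sensor to the thin filament, behaved differently from each other. The slow Tnnt1 had 0.951, 0.585, 0.841 and 0.823 CPM in flushed males 1 and 3 and flushed females 2 and 3, against 1.62, 1.72, 1.33 and 2.04 CPM in male pools 1 and 2 and female pools 1 and 2. It was the only gene of the 10 whose groups did not overlap, all flushed single mice being below all pools, as were 20.4% of the 20601 genes tested, with 21.3% of them above. Its mean of 0.80 ± 0.15 CPM in flushed single mice was 2.08-fold lower than the 1.68 ± 0.30 CPM in pools (SD, n = 4 each; a difference of -1.05 on the log2 scale, SE 0.23, edgeR adjusted p = 0.0042). Within females alone the edgeR adjusted p was 0.074, at a difference of -0.99.

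The fast Tnnt3 followed the 3 high libraries instead. It had 1.78, 0.450, 1.09 and 0.588 CPM in flushed males 1 and 3 and flushed females 2 and 3, against 2.43, 0.345, 1.86 and 0.971 CPM in male pools 1 and 2 and female pools 1 and 2. Male pool 2 was the lowest of all libraries and male pool 1 the highest, so the groups overlapped throughout. The preparation difference of -0.53 (SE 0.54, edgeR adjusted p = 0.45) did not pass.

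Acta1, the actin of the skeletal thin filament, had 2.50, 0.165, 0.505 and 0.548 CPM in flushed males 1 and 3 and flushed females 2 and 3, against 2.57, 1.31, 2.94 and 0.75 CPM in male pools 1 and 2 and female pools 1 and 2. Flushed male 1, male pool 1 and female pool 1 were high and alike, and the highest level was 17.8 times the lowest. Its preparation difference was -1.10 (SE 0.63, edgeR adjusted p = 0.18). Mylpf, the regulatory light chain of fast myosin, had 1.51, 0.405, 1.01 and 0.862 CPM in flushed males 1 and 3 and flushed females 2 and 3, against 1.30, 1.89, 1.64 and 1.48 CPM in male pools 1 and 2 and female pools 1 and 2. It was even among pools, and flushed male 1 overlapped them. The difference of -0.72 (SE 0.33, edgeR adjusted p = 0.097) did not pass.

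Atp2a1 had 3.73 CPM in flushed male 1 and 0.405, 0.294 and 0.627 CPM in flushed male 3 and flushed females 2 and 3, against 3.78, 0.976, 2.44 and 0.562 CPM in male pools 1 and 2 and female pools 1 and 2. The same 3 libraries were high, and the groups overlapped. Ckm had 3.37, 1.08, 0.505 and 0.666 CPM in flushed males 1 and 3 and flushed females 2 and 3, against 3.03, 2.35, 2.17 and 1.53 CPM in male pools 1 and 2 and female pools 1 and 2. All pools exceeded all flushed single mice but flushed male 1, which was the highest of the 8 libraries. Neither preparation difference passed, at -0.79 (SE 0.70, edgeR adjusted p = 0.38) for Atp2a1 and -0.84 (SE 0.39, edgeR adjusted p = 0.10) for Ckm.

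Counted together, 3 of the 10 genes were lower in flushed single mice than in pools (Myh4, Tnnt1 and Myh7) and 0 higher, where 22.9% of all genes tested were called lower and 22.6% higher. The median log2 difference of the 10 was -0.77, against -0.02 for all genes tested. Flushed male 1 was the highest flushed single mouse for most of the 10, so leaving it out lowers their flushed mean by construction. Without it, 9 of the 10 were called lower, all but Tnnt3 (edgeR adjusted p = 0.17), where 4259 of 21304 genes tested were called lower and 39.5% in either direction. With any other single library left out, 2 or 3 of the 10 were called. In the fit without flushed male 1, the median of the 10 was -1.61. There Acta1 differed by -2.25 (SE 0.54, edgeR adjusted p = 0.010) and Myh1 by -1.90 (SE 0.48, edgeR adjusted p = 0.013). In the same fit Atp2a1 differed by -2.01 (SE 0.64, edgeR adjusted p = 0.033). Ckm differed by -1.51 (SE 0.24, edgeR adjusted p = 0.0015) and Mylpf by -1.12 (SE 0.30, edgeR adjusted p = 0.017).

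**Figure D3:**
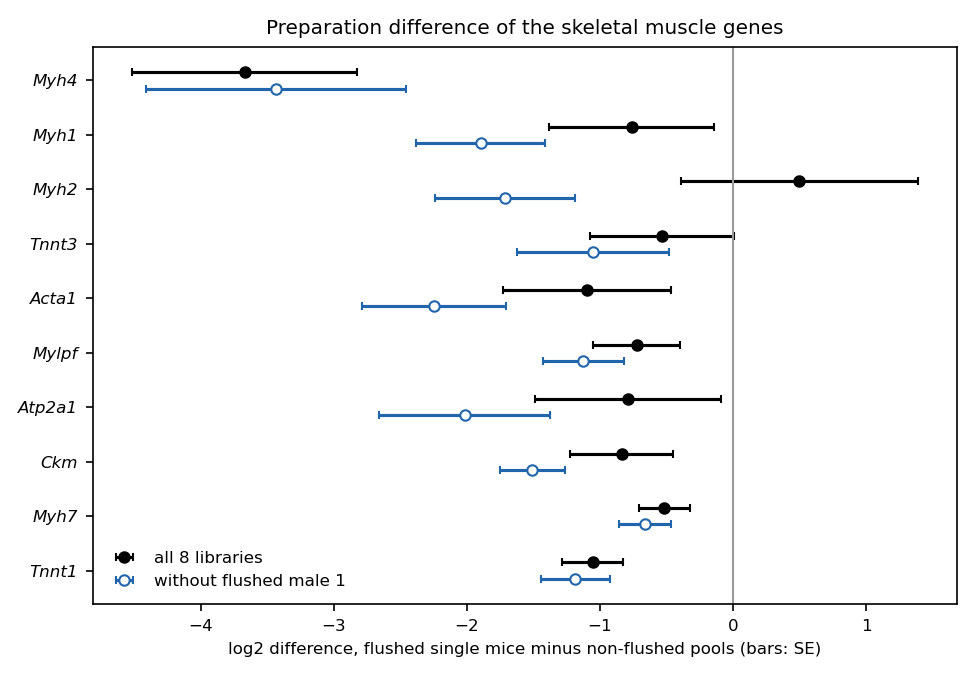
Log2 difference of each gene, flushed single mice minus non-flushed pools, with its SE, fitted over all 8 libraries (filled) and without flushed male 1 (open). Myh2 was at 0.50 over all libraries and at -1.71 without flushed male 1, while Tnnt1 was at -1.05 and -1.18.

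Between the sexes, 0 of the 10 genes passed (edgeR, 0.116% of all genes tested were called), and 2 had an unadjusted p under 0.05. These were Ckm, with 2.46 ± 1.01 CPM in males and 1.22 ± 0.779 CPM in females (SD, n = 4 each; a difference of 1.15 on the log2 scale, SE 0.39, edgeR adjusted p = 0.49), and Myh1, with 3.77 ± 2.98 CPM in males and 1.49 ± 1.04 CPM in females (SD, n = 4 each; 1.5 on the log2 scale, SE 0.63, edgeR adjusted p = 0.60). Flushed male 1 and male pool 1 had the highest male values of both genes, and the second library of each male group was within the range of females for Myh1. For Ckm, flushed male 3 with 1.08 CPM was within that range. Male pool 2 with 2.35 CPM lay above the highest female library, female pool 1 with 2.17 CPM. DESeq2 and limma-voom also called 0 of the 10, and edgeR with no filter on low counts called 4, where 2.41% of all genes were called. The groups overlapped for all 10 genes (0.932% and 0.782% of all genes tested were higher or lower in every male). Whether the preparation difference depended on sex was tested as an interaction: 0 of the 10 passed (0.0485% of all genes tested), 0 had an unadjusted p under 0.05, and the counts were also 0 by DESeq2 and limma-voom.

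How far libraries of 1 sex and preparation lay apart was measured on the log2(CPM + 0.5) scale, as the SD left after each group mean was removed. Atp2a1 had an SD of 1.10, Myh1 of 1.03, Myh2 of 1.02, Acta1 of 0.96, Myh4 of 0.96 and Tnnt3 of 0.84. Ckm and Mylpf followed with 0.50 and 0.44, and Tnnt1 and Myh7 had 0.23 and 0.22. Set against the 17881 genes averaging at least 20 reads, a level that Myh2 itself, with a mean of 17.4 reads, did not reach, 8 of the 10 lay above the 90th percentile of this spread, from the 97.1st for Mylpf to the 99.6th for Atp2a1. Since low counts spread more, the same was read among 3150 genes with a mean count in the range of the 10 (17.4 to 57.0 reads): these 8 lay between the 91.9th and the 99.2nd percentile, while Myh7 and Tnnt1 lay at the 46.1st and 49.8th. Among the 10, the slow myosin and slow troponin were thus near the middle of such genes, and the fast fibre genes, Acta1 and Ckm near the top. Fibre genes outside the 10 were mixed. Set against the 17881 genes, Actn3 lay at the 58th percentile, Casq1 at the 69.7th and Mybpc2 at the 87.3rd. On that scale Myh7 lay at the 80.2nd and Tnnt1 at the 82nd, above Actn3 and Casq1. Ttn lay at the 98.7th and Neb at the 99.0th. These percentiles are a description, without a test. The 10 genes were chosen with earlier results of these data known, so their spread in the same libraries is no independent result.

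**Figure D4:**
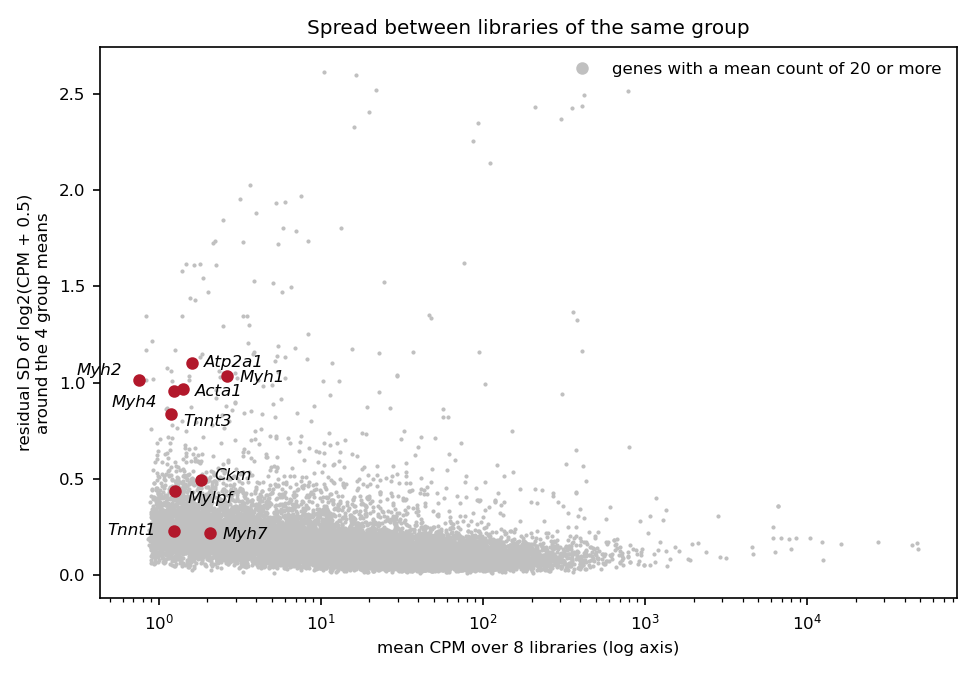
SD of log2(CPM + 0.5) after removal of the group means, against mean CPM on a log axis, for genes averaging at least 20 reads (grey) and the skeletal muscle genes (red). Atp2a1 at 1.10 and Myh1 at 1.03 sit above the mass of genes, and Tnnt1 at 0.23 and Myh7 at 0.22 sit within it.

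Other genes of the fibre were read from lists chosen with earlier results of these data known. Of 33 further sarcomere genes, 23 were tested, 4 were lower and 2 higher in flushed single mice, with a median of -0.39 over the 23, where 22.9% of all genes tested were lower and 22.6% higher with a median of -0.02. The counts of the lists that follow are to be read against the same shares. Tcap, which caps titin at the Z-disc, averaged 1.32 ± 0.488 CPM in flushed single mice and 2.86 ± 0.730 CPM in pools (SD, n = 4 each; a difference of -1.10 on the log2 scale, SE 0.28, edgeR adjusted p = 0.0088). The tropomyosins Tpm2 (-0.60, SE 0.10, edgeR adjusted p = 0.0011) and Tpm1 (-0.35, SE 0.07, edgeR adjusted p = 0.0026) were lower too, and both are also abundant in smooth muscle. Myom1, which links myosin at the M-band, was higher (0.30, SE 0.09, edgeR adjusted p = 0.018).

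Of 17 genes of calcium release and uptake, 13 were tested, 2 lower and 2 higher. The lower ones were the calcium-binding Casq1 (-0.78, SE 0.20, edgeR adjusted p = 0.0093) and Hrc (-0.84, SE 0.21, edgeR adjusted p = 0.0082). The pump Atp2a2, of slow fibres, heart and many other cells, was higher at 1029 ± 77.0 CPM in flushed single mice and 876 ± 30.1 CPM in pools (SD, n = 4 each; 0.23, SE 0.07, edgeR adjusted p = 0.018), and the channel Cacna1s also (1.14, SE 0.40, edgeR adjusted p = 0.040). Of 13 genes of muscle energy supply, 9 were tested and 4 were lower: Fabp3, Eno3, Pfkm and Pygm, by 0.31 to 0.86 on the log2 scale. Pfkm, Pygm and Eno3 averaged 22.9, 6.85 and 3.92 RPKM over the 8 libraries, above each of the 10 fibre genes. How much of this came from muscle fibres was not tested. Of 4 tested genes of the neuromuscular junction 0 passed in this comparison (edgeR, 0 at an unadjusted p under 0.05). Of 9 myogenic genes 4 were tested and Cdh15, an adhesion gene of muscle precursors, was lower (-0.75, SE 0.16, edgeR adjusted p = 0.0034). The myogenic regulators Myod1 and Myog had no read in any library. In the sex comparison 0 genes of these 5 lists passed (edgeR, 2 at an unadjusted p under 0.05).

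Among 14839 genes averaging at least 20 reads and carrying a regular symbol, the giant sarcomere protein gene Ttn had the profile most like the mean log2(CPM + 0.5) of the 10 (Pearson r 0.984 over 8 libraries). Ttn had 51.6, 20.9, 19.4 and 21.3 CPM in flushed males 1 and 3 and flushed females 2 and 3, against 54.9, 30.9, 43.1 and 28.4 CPM in male pools 1 and 2 and female pools 1 and 2, with the same 3 libraries high. The next were Plau, Btk, Chmp3, Hk3, Hmgcs1, Hacl1, Nid1, Gxylt2, Glod4, Slit2 and E2f8, with r from 0.982 to 0.934, of which none is on the fibre lists. Chmp3 ranged only from 83.0 to 89.7 CPM, so a high r does not mean a large difference. Over 8 libraries and so many genes such r values are a ranking, and 4 of the 12 remained among the first 12 when ranked by Spearman's rho. Neb and the calcium release channel gene Ryr1 showed the same 3 libraries on top. Both are outside the rule for named genes and were chosen after their values were seen. Other genes of their lists, such as Myom1 and Pvalb, did not, and how many did was not counted. Cacna1s averaged 0.563 ± 0.138 CPM in flushed single mice and 0.251 ± 0.124 CPM in pools (SD, n = 4 each). Stac3, also on the calcium list, averaged 1.31 ± 0.154 CPM and 1.26 ± 0.378 CPM in the same order. Neb, the ruler of the thin filament, had 6.03 CPM in flushed male 1 and between 3.01 and 3.11 CPM in the remaining flushed single mice, against 6.92 and 6.15 CPM in male pool 1 and female pool 1 and 3.04 and 2.15 CPM in the second pools.

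Markers of some other tissues moved with preparation too, and their part in the results above was not tested. The heart genes Myl7, Nppa, Tnnt2, Tnni3, Mybpc3 and Actc1 summed to 2.10 to 2.97 CPM in flushed single mice and 2.01 to 3.36 CPM in pools, with Nppa without a read and 0 of the 2 tested called (edgeR, 0 at an unadjusted p under 0.05). Smooth muscle genes summed to 3721 to 4561 CPM in flushed single mice and 4476 to 4831 CPM in pools, and of the 11 tested 2 were lower (Lmod1 and Tagln) and 2 higher (Synpo2 and Myocd). Bone genes summed to 6936 to 9470 CPM in flushed single mice and 15843 to 21865 CPM in pools, with 6 of 9 lower, Col1a1 and Dmp1 among them. Tendon genes summed to 112 to 134.5 CPM and 145 to 205 CPM in the same order, with 3 of 5 tested lower (Fmod, Thbs4 and Scx), cartilage genes to 59.7 to 98.0 CPM and 106 to 130 CPM, with 3 of 7 lower, and fat cell genes to 135 to 168 CPM and 122 to 149 CPM, with 3 of 6 tested lower (Cfd, Fabp4 and Adipoq). Plin4, which was not called (0.19, edgeR adjusted p = 0.073), makes up most of the fat cell sum, and without it the sum was 3.49 to 6.90 CPM in flushed single mice and 8.28 to 14.3 CPM in pools. Red cell genes summed to 105 to 619 CPM in flushed single mice and 1644 to 2049.9 CPM in pools, with 6 of 6 lower.

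Markers of stratified epithelia were also uneven between libraries, and partly in the same ones as the fibre genes. Their part in the fibre results was not tested. The keratins of oral and related epithelium, led by Krt4 and Krt13, summed to 35.4 CPM in flushed male 1, 5.80 in flushed male 3, 9.67 in flushed female 2 and 87.4 in flushed female 3, against 117 and 91.7 CPM in male pools 1 and 2 and 133 and 14.0 CPM in female pools 1 and 2, with 0 of 5 tested called (edgeR, 0 at an unadjusted p under 0.05). Male pool 1 and female pool 1 were highest in these keratins and also high in the fibre genes, while flushed female 3 and male pool 2 were high in the keratins and not among the 3 libraries high in the fibre genes. Cornified epithelium genes summed to 122 CPM in male pool 1 and to 2.02 to 4.96 CPM in the other 7 libraries, and 2 of 3 tested, Krt10 and Krt1, were lower in flushed single mice. The neuron genes of the vomeronasal epithelium were present in every library, which fits the organ named in the descriptions. They summed to 792 to 863 CPM in flushed single mice and 835 to 1016 CPM in pools. Omp averaged 375 ± 28.0 CPM and 417 ± 57.2 CPM in the same order (SD, n = 4 each, edgeR adjusted p = 0.23). Of the 6 tested, 3 were lower and 1 higher. The channel gene Trpc2 is listed without a read, but its exons lie within Xntrpc on the same strand, which had 416 to 692 reads.

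**Figure D5:**
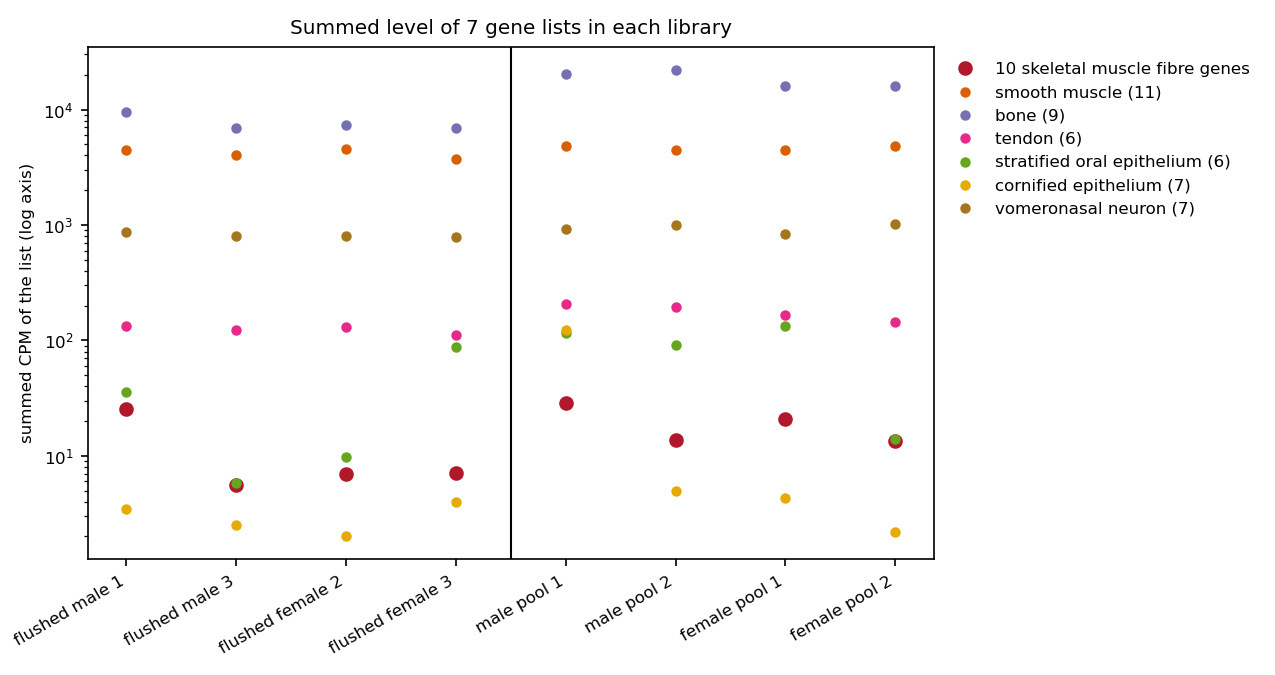
Summed CPM of the 10 skeletal muscle genes (red) and of 6 marker lists in each library, on a log axis, with the number of genes in each list in the legend; flushed single mice are left of the line and pools right. Bone genes sit between 6936 and 9470 CPM in flushed single mice and between 15843 and 21865 CPM in pools, whereas the skeletal muscle genes are high in 1 flushed library and 2 pools.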

How the data were processed

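RNA was measured in 8 libraries, 2 for each sex and preparation, with groups and replicate numbers from the labels; pools were numbered in listed order, and nothing further is given on how tissue was dissected. Polyadenylated RNA was sequenced stranded, from 1 end, over 100 nucleotides, as the labels' protocols state. The submitters' processing notes name STAR 2.7.1a, featureCounts 1.6.5 and GRCm38. Per the file headers the authors deposited unnormalized expected counts, splitting a read with several alignments into fractions; 10.16 to 11.79% of genes per library have fractional counts. Symbols came from GENCODE M21 by gene identifier and matched 48422 of 48831 genes, all 10 members included.

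Rounded counts entered edgeR 4.0.16 under R 4.3.3 (quasi-likelihood F test, TMM, filterByExpr on the 4 groups, additive sex and preparation terms, interaction in a further fit; 20601 genes, Benjamini-Hochberg threshold 0.05). The fits were checked on data simulated from these counts with known changes. An SE is the log2 difference divided by the square root of F. CPM are unrounded counts over the TMM-scaled size of the tested genes, and RPKM also over exon length per the file headers. Alternatives were RLE factors, no filter, DESeq2 1.42.0, limma-voom 3.58.1, each library left out and each level of the other factor alone. Differences in level under 1 read per library cannot be resolved at these depths.

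Named genes are the 10 members; of each other list those past the threshold, up to 4 by smallest p, and the 2 with the highest RPKM, from which the text takes some; and the 12 genes most like the mean of the members. The members and lists were chosen with earlier results of these data known. Promoters are RefSeq entries for GRCm38.p6.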

Additional observations from a re-analysis of the deposited data

Results flagged for a closer look

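In each of the 40 sets of 4 libraries (10 genes, by preparation or by sex) the distance of the highest or lowest library to its nearest neighbour was set against the range of the set. It was above Dixon's 95% critical value for 4 values in 7 sets. That value assumes 4 independent draws from 1 normal distribution, so its rate of about 1 in 20 cannot serve as a chance rate here. The sets by sex and by preparation share libraries, and the 10 genes were read in the same libraries. All 7 fell on flushed male 1 or female pool 1, so the 7 are not independent.

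Flushed male 1 lay far above the other 3 flushed single mice for Myh1 (6.39 CPM, next 0.982), Atp2a1 (3.73 CPM, next 0.627), Myh2 (3.28 CPM, next 0.235) and Acta1 (2.50 CPM, next 0.548). Female pool 1 lay far above the other 3 female libraries for Myh4 (3.08 CPM, next 0.470), Acta1 (2.94 CPM, next 0.75) and Atp2a1 (2.44 CPM, next 0.627). Male pool 1 was as high for most of these genes but shared its sets with flushed male 1 or female pool 1. None of Myh7, Tnnt1, Tnnt3, Mylpf and Ckm met this measure in any set.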

How the results depend on the processing

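No paired analysis was possible because flushed males and flushed females share 1 replicate number in the labels and the pools were numbered in listed order. Of the 10 genes, 3 passed for preparation with RLE factors, DESeq2 and limma-voom as with edgeR, 7 with no filter on low counts (30.6% of all genes), and 2 to 9 with 1 library left out, the most without flushed male 1. DESeq2 called Ckm (adjusted p = 0.048) and not Myh7. For sex, 0 passed with any library left out and 4 with no filter (2.41% of all genes), and for the interaction 0 and 2 (0.809%). Over all genes, preparation gave 9377 calls, 4770 within males, 4703 within females and 7734 to 9047 with 1 library left out. Sex gave 24, against 784 with no filter, 124 by DESeq2, 5 within pools and 8 to 25 with 1 library left out, and the interaction 10, against 263, 28 by DESeq2 and 4 to 18.

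Of 398 alternative log2 values of the 10 genes, 35 changed sign, 1 of them past the threshold (Myh2 for preparation without flushed male 1), 27 with 1 library left out and 12 without flushed male 1. Myh2 for preparation was -0.59 by limma-voom, -1.19 within females and -1.71 to 0.92 with 1 library left out. For sex the other sign came up by limma-voom for Tnnt3 (-0.15) and Mylpf (-0.0779), by DESeq2 for Myh4 (-0.12), and within pools for Myh2 (-0.0402) and Tnnt3 (-0.0267). Leaving out 1 library gave sex ranges of -0.24 to 1.36 for Acta1, -0.44 to 1.83 for Myh2, -0.64 to 1.32 for Myh4, -0.31 to 0.59 for Tnnt3, -0.19 to 0.10 for Tnnt1 and -0.33 to 0.30 for Mylpf. The interaction ranged from -1.59 to 2.16 for Acta1, -0.11 to 3.25 for Myh1, -2.25 to 3.77 for Myh2, -4.17 to 3.49 for Myh4, -0.0630 to 0.49 for Myh7, -0.85 to 2.45 for Tnnt3, -0.49 to 0.20 for Tnnt1, -1.22 to 0.66 for Mylpf and -0.84 to 2.78 for Atp2a1, and was -0.19 for Mylpf by limma-voom. The cause was not tested. The count of genes with a spread above the 90th percentile was 8 with a pseudocount of 2 and 9 when set against genes averaging at least 100 reads. Without scaling the median of all genes shifts to 0.10 for preparation and -0.12 for sex. Counts of 0 to 161 reads per gene and library limit the precision of every value.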

Other observations

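Some genes named for muscle did not have the same 3 libraries on top as the skeletal fibre genes. Myom1 had 87.7 to 117 CPM in flushed single mice and 78.8 to 90.7 CPM in pools, higher in flushed single mice (edgeR adjusted p = 0.018), and Pvalb, a calcium buffer of fast fibres and of some neurons, 13.3 to 16.9 CPM and 10.1 to 14.5 CPM in the same order. Pax3, a regulator of muscle precursors and of the neural crest, had 9.40 to 10.9 CPM in flushed single mice and 10.2 to 11.2 CPM in pools, at the 6.82nd percentile of spread between libraries of 1 group, where Myom1 lay at the 62.9th, Musk at the 72.3rd and Pvalb at the 82.3rd. Musk, the kinase of the neuromuscular junction, had 2.02 to 2.79 CPM in flushed single mice and 1.57 to 2.47 CPM in pools. Flushed male 1 and male pool 1 were not both at the top for any of these 4.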
